A study of Oryzias latipes with 60 samples.

Results

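Trametinib is a drug that blocks the MEK kinases, the step of the RAS-RAF-MEK-ERK cascade that phosphorylates and so activates ERK. The cascade carries signals from growth factor receptors to transcription in most tissues, so a MEK inhibitor lowers genes that ERK activity maintains and can raise genes that it holds down. The xmrk oncogene of the platyfish Xiphophorus encodes a mutated epidermal growth factor receptor that signals without its ligand, and xmrk-transgenic medaka develop pigment cell tumours. Described here are the 100 medaka genes whose RNA stood highest above DMSO in trametinib-treated fish of both genotypes. They were selected on the trametinib and DMSO fish from 17144 candidate genes with a mean of at least 1 CPM (counts scaled to a common library size) over 60 fish, out of 20459 genes counted. For each gene the median log2 CPM of the DMSO fish was subtracted from that of the trametinib fish, once in transgenic and once in wild-type fish, and the smaller of both differences was the gene's score. The height of the members over DMSO is therefore how they were chosen and is described without a test.

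Poly-A RNA of whole medaka (Oryzias latipes) was sequenced, 1 library for each of 60 fish. The fish were 3 to 4 weeks old and about 10 mm long, carried xmrk or were wild type, and RNA integrity numbers were above 8.0 per the labels. Transgenic groups were trametinib at 20 nM (10 fish), cisplatin at 70 µM (10 fish), DMSO (5 fish), saline (5 fish) and untreated (5 fish), and each of the same 5 wild-type groups held 5 fish. Treated and vehicle fish were kept for 5 days in a petri dish, whereas untreated fish stayed in ordinary housing, so that the dish and the vehicle cannot be told apart in any comparison with untreated fish. The labels do not say which fish shared a dish, and p-values measure the spread between these fish. The lines may differ in more than the transgene, which no group here sets apart, and the promoter that drives xmrk is not given in the sources used here.

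Libraries held 34788594 to 67018564 counts, with a median of 51038009, and no pair within a group agreed within sampling noise. Library scaling with TMM, edgeR's correction for the composition of each library, gave factors of 0.2336 to 1.283. The factor was under 0.8 in 6 libraries. These were transgenic fish 17 (saline), 21 and 31 (cisplatin) and 63 (trametinib), and wild-type fish 40 (cisplatin) and 47 (DMSO). A low factor raises the CPM of every gene in that fish relative to the library total. Of the 100 members, 36 had their highest CPM outside trametinib in 1 of the 5 such libraries among 45 fish, against 12 with library totals in place of TMM. The share of all candidates was not computed, so these counts are not read as a trait of the members. Results of the tested comparisons that rest on these libraries are given with and without them. The table names genes by Ensembl identifiers, none of the 20459 could be paired with a symbol, and members are therefore given by identifier, without a known function. For the same reason neither the genotype nor the tissue could be checked against xmrk or marker genes.

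The members had scores of 1.05 to 8.09 on the log2 scale, with a median of 1.72, against a median of -0.20 over all candidates. A score of 2 or more was reached by 39 members, of 3 or more by 17 and of 4 or more by 13. The median difference between trametinib and DMSO over the members was 2.22 in transgenic fish (range 1.06 to 8.09) and 1.94 in wild-type fish (1.05 to 8.35). The response was the larger one in transgenic fish for 50 of the 100 members, and the difference of the responses, transgenic minus wild type, ran from -2.20 to 2.69. ENSORLG00000014042 was the last gene admitted with 1.049 and ENSORLG00000001065 the first left out with 1.046, so membership near the limit separates nearly equal values. Averaged over all 60 fish, the members had a median of 20.5 CPM against 15.9 for the candidates, and 13 of them averaged 100 CPM or more. These averages include the trametinib fish, in which the members are high by choice. Nothing is therefore read from their likeness to the candidates.

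**Figure D1:**
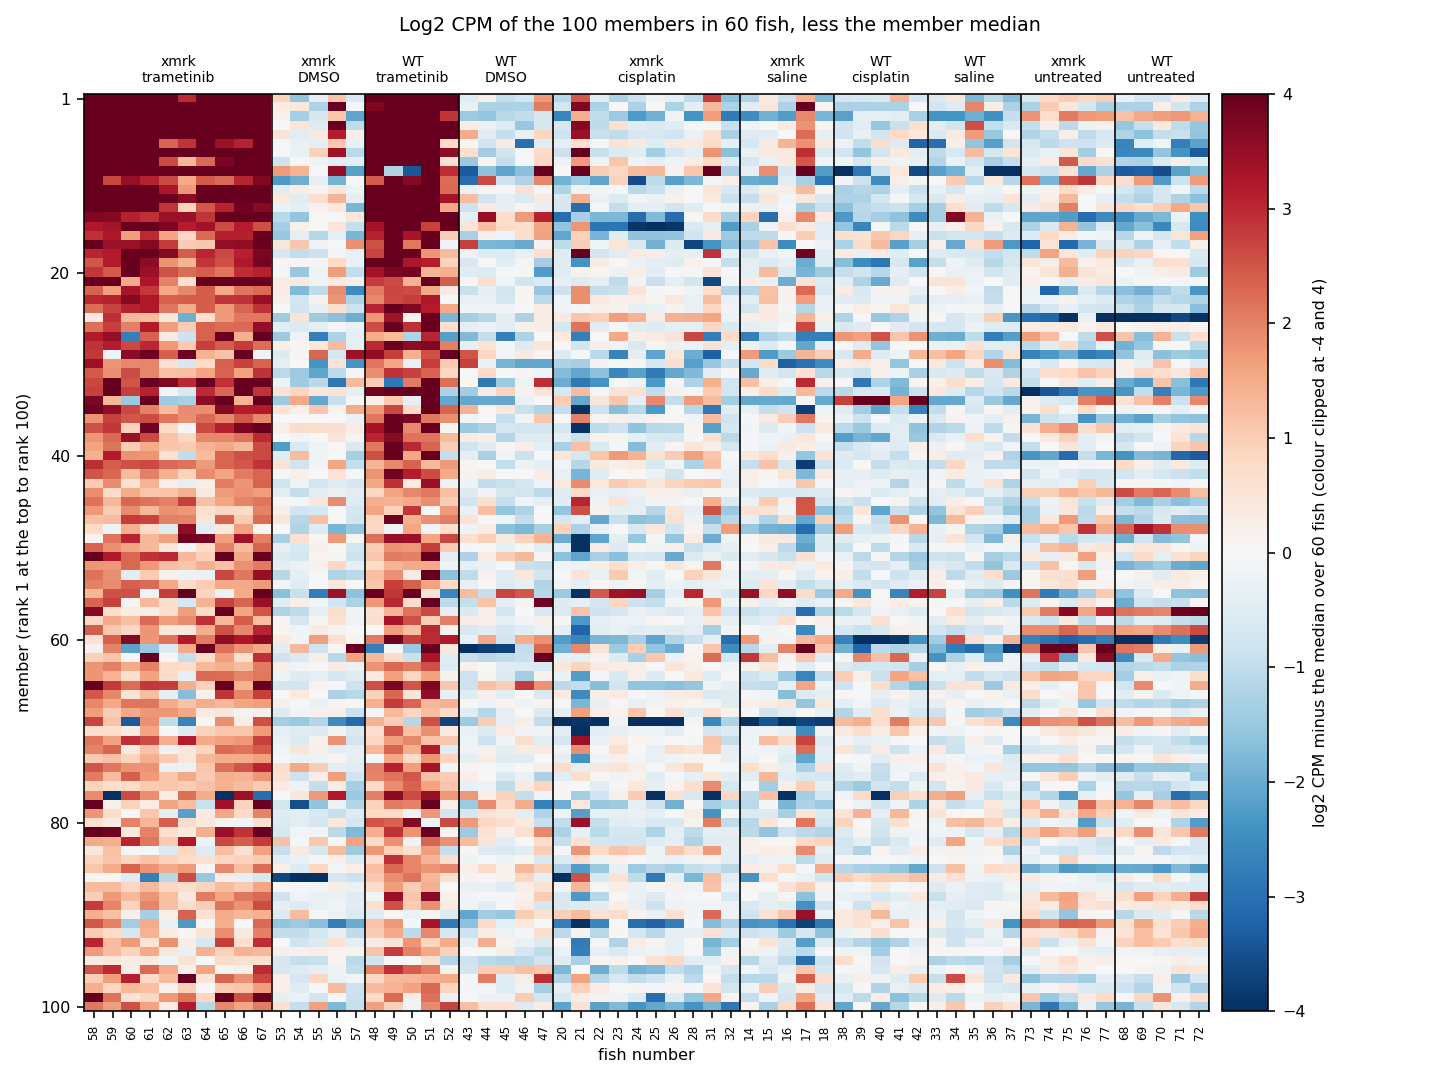
Log2 CPM of the 100 members (rows, ordered by score) in 60 fish (columns, by group), less each member's median over all fish, with colour clipped at -4 and 4. The 10 transgenic and 5 wild-type trametinib fish are high for most rows, by the choice of the members, and the transgenic saline fish 17 and cisplatin fish 21 stand apart within their groups.

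ENSORLG00000003566 had the highest score. It measured 6.24, 168 and 414 CPM as the lowest, median and highest of 10 transgenic trametinib fish, against 1.42, 0.229, 0.581, 1.66 and 0.478 CPM in the 5 transgenic DMSO fish. Wild-type trametinib fish had 156, 378, 315, 44.3 and 12.8 CPM, against 0.530, 0.871, 0.374, 0.445 and 2.56 CPM in wild-type DMSO fish. Every trametinib fish lay above every DMSO fish in both genotypes, and transgenic fish 63 and wild-type fish 52 were the lowest of their groups. Outside trametinib and DMSO the gene stayed at 0.190 to 5.33 CPM, and the 2 highest values were those of transgenic cisplatin fish 31 and 21. ENSORLG00000020709, second by score, was nearly silent without the drug in most fish. It had 9.22, 21.5 and 51.9 CPM as the lowest, median and highest of the transgenic trametinib fish, against 0.0730, 0.0818, 0, 4.43 and 0.0478 CPM in transgenic DMSO fish. Wild-type trametinib fish had 1.15, 15.6, 12.2, 36.3 and 1.98 CPM, against 0.0365, 0, 0, 0 and 0.335 CPM in wild-type DMSO fish. The wild-type values rest on 3655 reads under trametinib and 13 reads under DMSO, a ratio of 247 after library scaling (95% exact binomial interval 145 to 465, counting error only). In transgenic fish the counts were 12546 and 209 reads, a ratio of 33 (28.8 to 38), with most of the DMSO signal in fish 56. The groups did not overlap in transgenic fish or in wild-type fish. The log2 difference of this gene depends on the count of 2 added before the logarithm. Outside trametinib and DMSO, its highest values were 2.14 CPM in transgenic saline fish 17 and 1.15 CPM in transgenic cisplatin fish 21. Those libraries have low TMM factors, and the values lay near the lowest wild-type trametinib fish, at 1.15 and 1.98 CPM.

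The most abundant member, ENSORLG00000011267, moved far less. Its level was 1952, 4016 and 6216 CPM as the lowest, median and highest of the transgenic trametinib fish, against 2344, 1373, 1932, 4640.3 and 1079 CPM in transgenic DMSO fish. Wild-type trametinib fish had 4635, 5079, 5931, 9438 and 3589 CPM, against 1864, 1865, 1374, 1764 and 770.4 CPM in wild-type DMSO fish. The groups overlapped in transgenic fish, where DMSO fish 53 and 56 lay inside the trametinib range, and did not overlap in wild-type fish. ENSORLG00000017552, the second most abundant member, gave the same picture, with a difference of 1.25 in transgenic fish, where DMSO fish 56 at 2080.1 CPM lay inside the trametinib range of 1325 to 3383 CPM, and of 2.22 in wild-type fish, where the groups did not overlap.

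Over all members, every trametinib fish lay above every DMSO fish for 49 members in transgenic fish, for 45 in wild-type fish and for 31 in both. The same held for 1.42%, 2.44% and 0.262% of the 17144 candidates, and the choice of the members fixes this direction. In an edgeR fit of the 25 trametinib and DMSO fish, 58 members were higher under trametinib in transgenic fish and 65 in wild-type fish, where 0.962% and 1.61% of all 18706 genes tested were, and nothing is read from these counts because the rule used the same fish. Means and medians disagreed for single members. ENSORLG00000018261 had a median of 4.29 CPM (lowest 0.299, highest 45.7) in transgenic trametinib fish, against 1.06, 3.65, 0.805, 1.55 and 153 CPM in transgenic DMSO fish. DMSO fish 57 lay above all trametinib fish, the fitted log2 fold change was -2.06, and the gene would not have been a member had group means been compared.

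**Figure D2:**
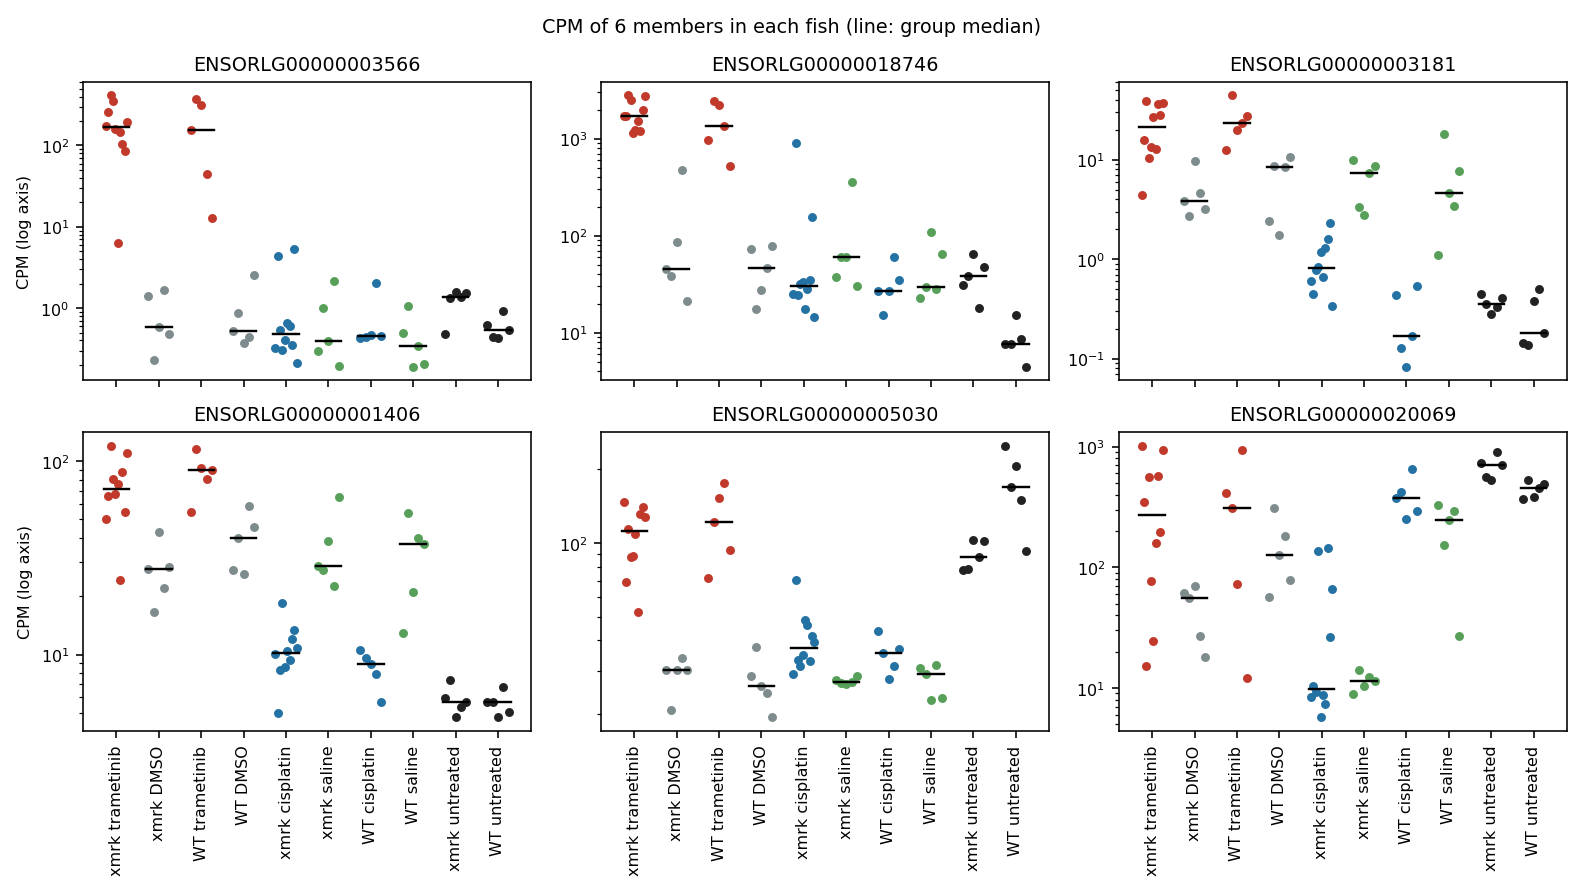
CPM of 6 members on a logarithmic axis in each fish of the 10 groups, with the group median as a line, points coloured by treatment. ENSORLG00000003566 and ENSORLG00000018746 are high under trametinib alone, apart from single fish. ENSORLG00000003181 and ENSORLG00000001406 have higher medians in DMSO and saline fish too than in untreated and cisplatin fish. ENSORLG00000005030 and ENSORLG00000020069 are high in untreated fish as well. In wild-type fish ENSORLG00000020069 also has median log2 CPM of 8.55 under cisplatin and 7.95 in saline, beside 8.27 under trametinib.

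How far a fish stood above DMSO differed among the trametinib fish. Averaged over the 100 members, the distance from the DMSO median was 2.57 ± 0.49 log2 units in transgenic trametinib fish (SD, n = 10), between 1.76 in fish 63 and 3.40 in fish 67, against 0.10 ± 0.30 in transgenic DMSO fish (n = 5). It was 2.47 ± 0.88 in wild-type trametinib fish (n = 5), between 1.15 in fish 52 and 3.28 in fish 51, against 0.10 ± 0.23 in wild-type DMSO fish (n = 5). The 35 cisplatin, saline and untreated fish lay between -0.41 and 0.47, and the highest DMSO fish, transgenic fish 56, at 0.62. On this mean the 15 trametinib fish stood above all 45 others. The choice of the members on these trametinib and DMSO fish favours that, so nothing is read from it. Between 71 and 96 members were above every DMSO fish of the genotype in single transgenic trametinib fish, and between 57 (fish 52) and 92 in single wild-type trametinib fish. The counts were 7 to 37 in transgenic and 9 to 16 in wild-type cisplatin fish, 5 to 36 in transgenic and 3 to 12 in wild-type saline fish, and 26 to 40 in transgenic and 17 to 22 in wild-type untreated fish. The share of all candidates above every DMSO fish was not computed for single fish. Nothing is read from these counts, and those of the trametinib fish are favoured by the choice of the members. Summed over the members, CPM was 21077 ± 6272 in transgenic trametinib fish against 5548 ± 3202 in transgenic DMSO fish, and 26364 ± 12476 in wild-type trametinib fish against 4114 ± 759 in wild-type DMSO fish (SD). In whole fish, more cells of a type and more RNA per cell cannot be told apart in any of these values.

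**Figure D3:**
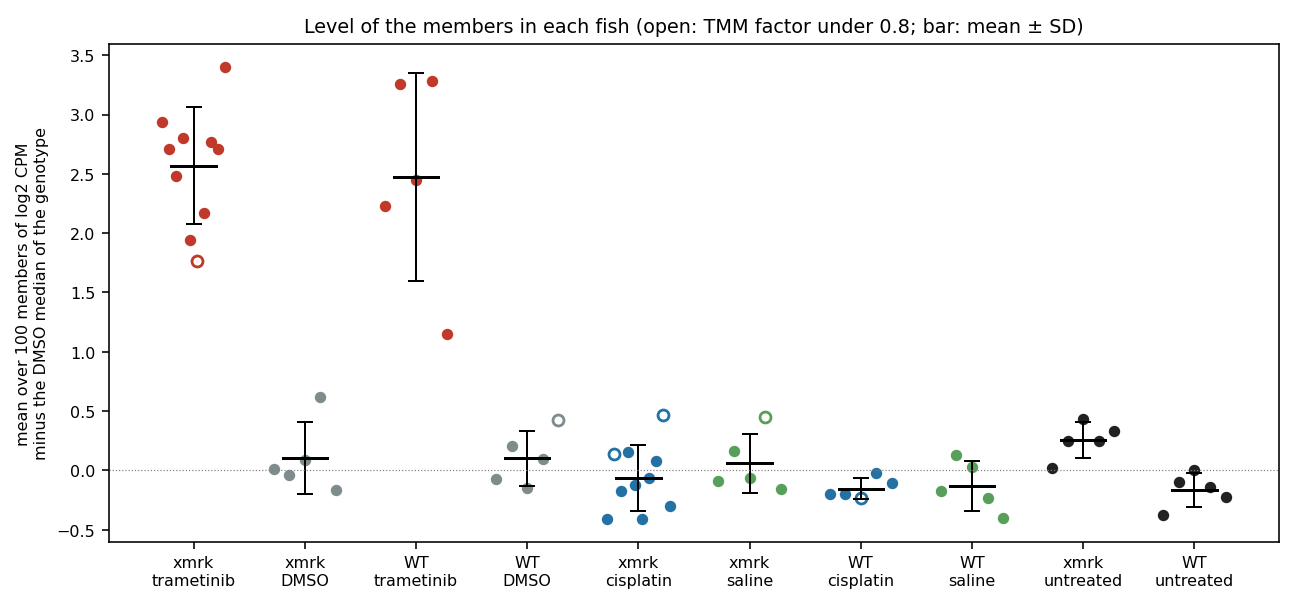
Mean over the 100 members of log2 CPM minus the DMSO median of the genotype, 1 point per fish, with the mean and SD of each group and open points for libraries with a TMM factor under 0.8. The trametinib fish lie between 1.15 and 3.40, a height favoured by the choice of the members, and the other 45 fish lie below 0.63.

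Members also differed more among fish of 1 group than other genes did. The median SD of log2 CPM was 0.90 for members against 0.40 for all candidates among the 10 transgenic trametinib fish, and 1.2 against 0.31 among the 5 wild-type trametinib fish. The rule used these fish, and choosing the largest differences of medians in small groups favours genes of large spread. The spreads are therefore descriptions without a test. A gene of large spread may vary in any group, so nothing is read from the spreads of the other groups below either. The larger spread was present without drug or vehicle, at 0.53 against 0.21 in transgenic and 0.46 against 0.18 in wild-type untreated fish, and smallest beside the background in transgenic saline fish, at 0.89 against 0.85, the group that holds fish 17. Single members marked both ends. ENSORLG00000001151 was among the steadiest, with 24.9, 30.4 and 36.7 CPM as the lowest, median and highest of the transgenic trametinib fish, against 12, 13.4, 15.7, 18.9 and 11 CPM in transgenic DMSO fish. ENSORLG00000008148 was the other, at 1.60 to 2.60 CPM in transgenic trametinib fish against 0.367 to 1.24 CPM in transgenic DMSO fish. Neither gene's groups overlapped in transgenic fish. ENSORLG00000011335 had the opposite behaviour, with 7 transgenic trametinib fish between 4.17 and 36.3 CPM and the other 3 (fish 59, 65 and 67) between 0.0703 and 0.365 CPM, against 1.15 to 30.4 CPM in transgenic DMSO fish. Values under 0.4 CPM occurred for this gene outside trametinib too, in transgenic cisplatin fish 25 and 31, transgenic saline fish 16, wild-type cisplatin fish 40 and wild-type untreated fish 71. ENSORLG00000002657 ranged from 0.0176 to 23.1 CPM in the same 10 trametinib fish, against 0 to 0.409 CPM in transgenic DMSO fish, and the groups overlapped.

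The response differed most between the genotypes in 4 members named for that. ENSORLG00000004104 and ENSORLG00000012679 had the largest excess in transgenic fish. ENSORLG00000012679 had a median of 10.1 CPM (2.77 to 57.2) in transgenic trametinib fish, against 0.821, 0.818, 1.59, 1.39 and 0.797 CPM in transgenic DMSO fish, a difference of 3.56. In wild-type fish it was 8.80, 20.6, 8.34, 19.5 and 3.08 CPM under trametinib, against 0.767, 3.30, 2.86, 10.3 and 5.06 CPM under DMSO, a difference of 1.4 with overlapping groups. The trametinib levels of the genotypes overlapped, and the DMSO levels were the ones set apart, except in wild-type fish 43. ENSORLG00000004104 had 1.53 to 27.2 CPM in transgenic trametinib fish against 0 to 0.622 CPM in transgenic DMSO fish, a difference of 4.97. It had 0 to 11.3 CPM in wild-type trametinib fish against 0 to 2.07 CPM in wild-type DMSO fish, a difference of 2.29 with overlapping groups. ENSORLG00000009641 had the larger response in wild-type fish, with 42.7, 173, 16.2, 97.4 and 4.47 CPM under trametinib, against 1.5, 1.74, 2.64, 2.49 and 2.47 CPM under DMSO. In transgenic fish the median was 28.4 CPM (4.08 to 107) under trametinib, against 5.09, 7.03, 6.89, 6.65 and 5.34 CPM under DMSO, so the gene also started from a higher DMSO level there. The fourth was ENSORLG00000018261, described above.

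The members were next set against fish that were never in a dish, since trametinib fish differ from those by drug, vehicle and housing together. The trametinib median was above the untreated median in both genotypes for 85 members, where 38% of the candidates were, and at least 1 log2 unit above it for 71, where 3.09% were. It was the highest of the 5 treatments in both genotypes for 80 members, against 7.78% of candidates, and at least 1 log2 unit above saline for 89, against 0.927%. The median difference from untreated fish was 2.16 in transgenic fish and 2.59 in wild-type fish. These values share the trametinib fish with the rule and carry no test. The DMSO median itself lay below the untreated median in both genotypes for 41 members, against 34.5% of candidates, and above it for 39, against 38.5%. It was at least 1 log2 unit below for 12 members, against 2.19%. The rule also used the DMSO fish, and a low DMSO median raises the score. These counts therefore carry no test either, and nothing is read from them.

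For 5 members the trametinib median was below the untreated one in both genotypes, against 39.7% of candidates. These were ENSORLG00000010353, ENSORLG00000000233, ENSORLG00000017758, ENSORLG00000018261 and ENSORLG00000020069, named after their values were seen. ENSORLG00000017758 had a median of 118 CPM (50.8 to 317) in transgenic trametinib fish, against 142, 138, 193, 133 and 152 CPM in transgenic untreated fish, and DMSO fish had 34.1 to 48.1 CPM. In wild-type fish it had 38.8, 122, 87.7, 302 and 43.4 CPM under trametinib, against 120, 114, 141, 178 and 239 CPM untreated, and DMSO fish had 23.9 to 32.4 CPM. The DMSO fish were thus low for this gene beside the trametinib and untreated fish, which overlapped. They were not the lowest group, as the saline and cisplatin medians lay below the DMSO median in both genotypes. For ENSORLG00000005030, transgenic trametinib fish (52.3 to 147 CPM) and untreated fish (77.9 to 103 CPM) overlapped too. The transgenic DMSO fish lay below both, at 20.8 to 33.9 CPM. The median log2 CPM of ENSORLG00000005030 in transgenic fish was 4.92 in DMSO, 4.76 in saline and 5.21 in cisplatin fish.

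**Figure D4:**
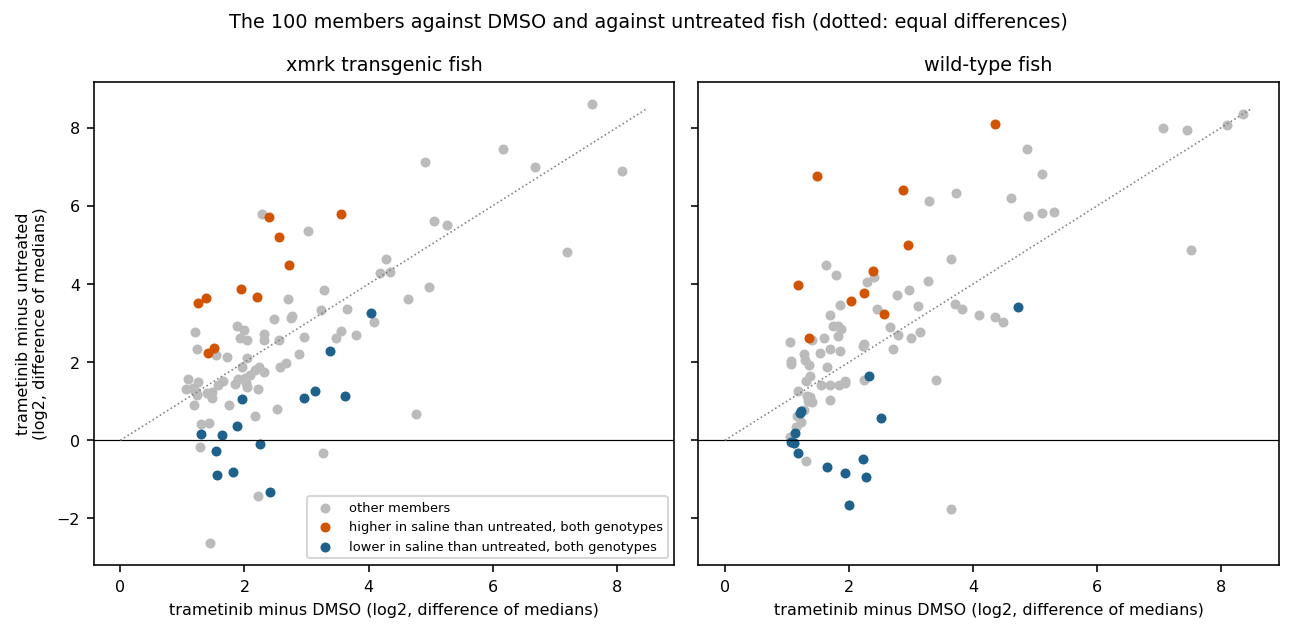
Difference of median log2 CPM between trametinib and untreated fish (vertical) against that between trametinib and DMSO fish (horizontal) for each member, in transgenic and wild-type fish, with members coloured where saline fish were higher (10) or lower (14) than untreated fish in both genotypes by edgeR. The 10 lie above 0 on the vertical axis in both panels, which the choice of the members favours. The 14 lie on both sides of 0, with medians of 0.25 in transgenic and -0.05 in wild-type fish.

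Comparisons without any trametinib or DMSO fish hold none of the fish whose differences gave the scores, although the abundance limit and the library scaling used all 60. They were tested by quasi-likelihood in edgeR, with p-values adjusted by Benjamini and Hochberg's method over all genes of the fit. Between saline and untreated fish, the move to the dish with saline, 22 members rose and 27 fell in transgenic fish of 98 that passed the filter on low counts, where 18% and 11.3% of all 18632 genes tested did (29.3% in either direction). In wild-type fish 15 members rose and 17 fell, against 6.8% and 6.83% of all genes (13.6% in either direction). In both genotypes 10 members rose and 14 fell, against 4.51% and 4.44% of all genes tested, and none was called in opposite directions. A further 25 were called in transgenic fish alone and 8 in wild-type fish alone, and whether the genotypes differ in this was not tested. The median log2 fold change of the 98 was -0.15 in transgenic and 0.17 in wild-type fish, against 0.01 and 0.07 over all genes. Without fish 17, the 1 library of low TMM factor in this fit, 48 members were called in transgenic fish. Of these, 16 were higher and 32 lower, where 17.5% and 20.1% of all 18681 genes were (37.5% in either direction). In wild-type fish 50 were called, 22 higher and 28 lower, where 17.1% and 20.1% of all genes were (37.2% in either direction). The members that fell in both genotypes then numbered 22, and the share of all genes that did so was not computed in that setting.

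ENSORLG00000003181 was among the members that rose most. It had 10.0, 3.33, 2.77, 7.31 and 8.56 CPM in transgenic saline fish, against 0.449, 0.358, 0.282, 0.332 and 0.404 CPM in transgenic untreated fish. In wild-type fish it had 1.11, 18.1, 4.60, 3.40 and 7.79 CPM in saline, against 0.144, 0.136, 0.380, 0.497 and 0.182 CPM untreated. No saline fish was as low as any untreated fish in either genotype, and the log2 fold changes were 4.12 ± 0.62 (SE, edgeR adjusted p = 0.000140) and 4.68 ± 0.64 (adjusted p = 7.12e-05). ENSORLG00000005665 led in wild-type fish, with 4.54, 2.69, 3.37, 8.65 and 0.852 CPM in saline against 0.0642, 0.155, 0.138, 0.321 and 0.0363 CPM untreated (log2 fold change 4.77 ± 0.89, adjusted p = 0.00118). ENSORLG00000020247 led in transgenic fish with a log2 fold change of 4.60 (adjusted p = 0.0147), which rested on fish 17. That fish had 124 CPM and the other saline fish 0.312 to 5.95 CPM, against 0.366 to 2.42 CPM in untreated fish, and without it the log2 fold change was 0.97 and the call was lost.

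Among the members that fell, ENSORLG00000020069 had 8.87, 14.2, 10.3, 12.4 and 11.5 CPM in transgenic saline fish, against 729, 560.0, 529, 906 and 699 CPM in transgenic untreated fish. The groups lay far apart, with a log2 fold change of -5.90 ± 0.49 (adjusted p = 2.99e-07). In wild-type fish the same gene had 330, 153, 247, 292 and 27.0 CPM in saline, against 368, 525, 380, 450.0 and 492 CPM untreated, which left -1.09 on the log2 scale and did not pass (adjusted p = 0.0777). ENSORLG00000002657 fell in both genotypes at very low levels, with 1 read in 5 transgenic saline fish against 98 in untreated fish (ratio 0.0126, 95% interval 0.000317 to 0.0721) and 5 reads against 95 in wild-type fish (ratio 0.0532, 0.0169 to 0.128). The adjusted p was 0.00487 and 0.0119. ENSORLG00000018261 fell in wild-type fish, with 0.390, 0.179, 0.138, 0.289 and 0.0681 CPM in saline against 6.53, 6.33, 1.73, 1.22 and 4.79 CPM untreated (log2 fold change -4.25 ± 1.28, adjusted p = 0.0319), and this call was lost when any of 8 single fish was left out.

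The members with a shared direction in saline were also set beside trametinib. All 10 that were higher in saline than untreated fish also had trametinib medians above untreated in both genotypes, by a median of 3.77 in transgenic and 4.15 in wild-type fish. Of the 14 that were lower in saline, 4 had trametinib medians above and 3 below untreated in both genotypes, with median differences of 0.25 and -0.05. Trametinib medians above untreated in both genotypes were also found for 40 of the 41 members not called in either genotype. They were found for 23 of 25 called in transgenic fish alone and 6 of 8 in wild-type fish alone. All members lie above DMSO, itself a dish group, by choice, which favours the result for the 10. These are descriptions, as the same untreated fish enter both differences and the trametinib fish chose the members. Nothing is therefore read from them.

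Cisplatin, a platinum compound that crosslinks DNA, was compared with its vehicle saline. In transgenic fish no member rose and 4 of 98 fell, where 0.0696% of all 18690 genes tested rose and 0.268% fell (0.337% in either direction). In wild-type fish 1 rose and 2 fell, where 0.0482% and 0.0268% did (0.0749% in either direction). The median log2 fold change of the members was -0.05 in transgenic and -0.17 in wild-type fish, against 0.05 and 0.00 over all genes. The same saline fish enter this comparison and the one with untreated fish, so the values of both stand side by side and are not related to each other. Without the libraries of low TMM factor, 9 members were called in transgenic fish (4 higher, 5 lower), where 1.63% of all 18716 genes were, and 15 in wild-type fish (9 higher, 6 lower), where 12.1% were.

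ENSORLG00000003181 and ENSORLG00000001406 fell with cisplatin in both genotypes, as did 0.0214% of all genes tested. ENSORLG00000003181 had 0.336, 0.806 and 2.34 CPM as the lowest, median and highest of 10 transgenic cisplatin fish, against 2.77 to 10.0 CPM in transgenic saline fish. In wild-type fish it had 0.435, 0.128, 0.0828, 0.170 and 0.539 CPM under cisplatin, against 1.11 to 18.1 CPM in saline. No group overlapped, and the log2 fold changes were -2.65 ± 0.50 (adjusted p = 0.0171) and -4.67 ± 0.71 (adjusted p = 0.00348). ENSORLG00000001406 had 4.96, 10.2 and 18.5 CPM as the lowest, median and highest of the transgenic cisplatin fish, against 28.5, 27.5, 38.6, 22.7 and 65.3 CPM in transgenic saline fish. Wild-type fish had 10.6, 9.59, 8.97, 7.93 and 5.66 CPM under cisplatin, against 12.9, 54.0, 21.1, 40.1 and 37.4 CPM in saline. The groups were again apart in both genotypes, with log2 fold changes of -1.77 ± 0.29 (adjusted p = 0.00500) and -1.97 ± 0.35 (adjusted p = 0.0213), and the wild-type call was lost when any of 7 single fish was left out. In untreated fish this gene had 4.73 to 7.37 CPM over both genotypes, and in trametinib fish 24.2 to 120 CPM. By group medians, both genes thus stood lowest in untreated and cisplatin fish, higher in saline and DMSO fish and highest in trametinib fish. The rule set trametinib above DMSO, and the comparisons with untreated and cisplatin fish share the saline fish. This order is therefore a description without a test.

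The other calls with cisplatin were made in 1 genotype alone. ENSORLG00000014042 fell in transgenic fish, with a median of 3.82 CPM (2.23 to 25.1) under cisplatin against 17.7, 6.67, 28.0, 75.3 and 24.7 CPM in saline. The groups overlapped through cisplatin fish 21, and the log2 fold change was -2.39 ± 0.52 (adjusted p = 0.0449), lost when any of 17 single fish was left out and held without the low-factor libraries (-2.40, adjusted p = 0.000974). ENSORLG00000018261 had a log2 fold change of -4.26 ± 0.92 (adjusted p = 0.0438), which rested on saline fish 17 at 151 CPM, beside 0.659 to 5.92 CPM in the other 4. Without fish 17 it was -0.71 (adjusted p = 1). ENSORLG00000002657 rose in wild-type fish, with 0.997, 5.08, 3.95, 0.424 and 2.93 CPM under cisplatin, against 0, 0, 0.0691, 0.0170 and 0 CPM in saline. All cisplatin fish were above all saline fish, 615 reads stood against 5, and the ratio was 154 (95% interval 65.6 to 475, adjusted p = 0.00348). This call held whichever single fish was left out. In transgenic fish the same gene had a log2 fold change of 5.05 with cisplatin, which did not pass (edgeR adjusted p = 0.0909). For no member did the cisplatin responses of the genotypes differ by edgeR's interaction test, where 0.00535% of all genes were called. The smallest adjusted p among members was 0.515. An unadjusted p under 0.05 was found for 9 members, limma-voom called none and DESeq2 called 1. The shares of all genes that met these criteria are not given here, so nothing is read from these counts. Without the libraries of low TMM factor 6 members were called, where 10.3% of all genes were.

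**Figure D5:**
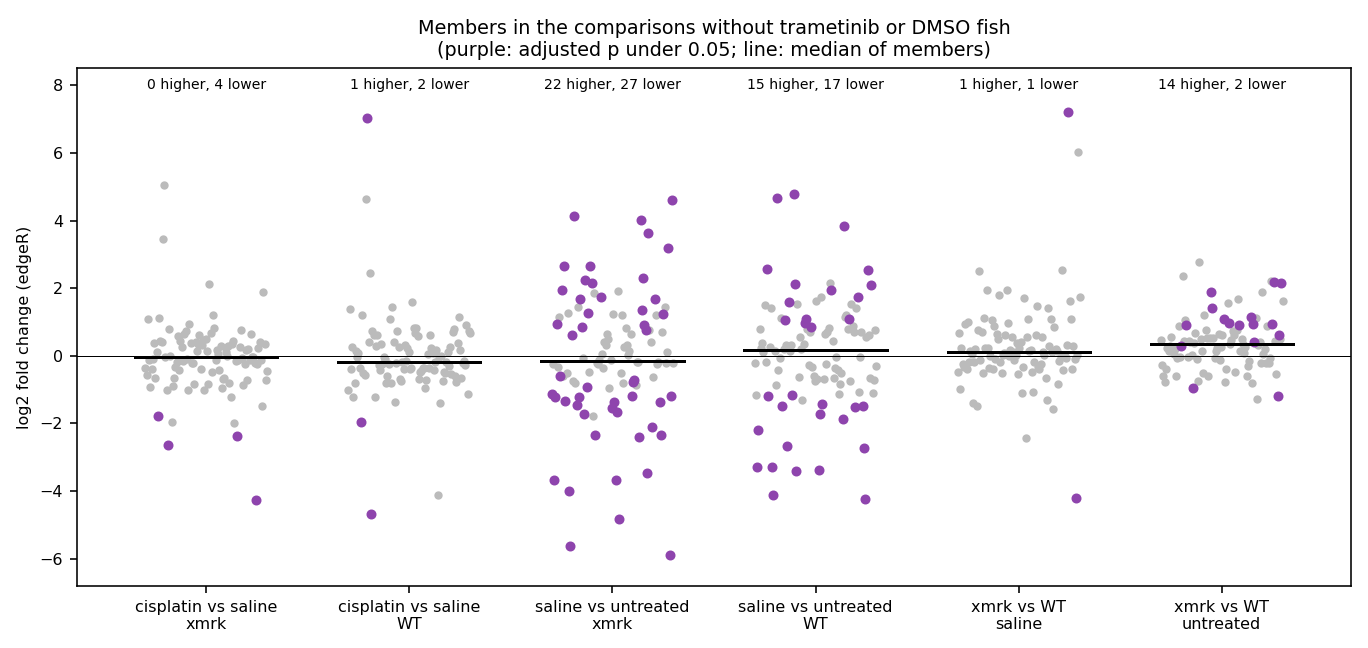
Log2 fold change (edgeR) of each member that passed the filter in 6 comparisons that hold no trametinib or DMSO fish, with calls at an adjusted p under 0.05 in purple and the median of the members as a line. Calls are most numerous between saline and untreated fish (22 higher and 27 lower in transgenic, 15 and 17 in wild-type fish) and lean to one side between untreated transgenic and wild-type fish (14 higher, 2 lower).

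Between the genotypes without treatment, 14 of 96 members were higher and 2 were lower in untreated transgenic than in untreated wild-type fish, where 4.81% and 3.11% of all 18308 genes tested were (7.92% in either direction). The median log2 fold change of the members was 0.35, against -0.01 over all genes. ENSORLG00000018746 had 31.3, 38.2, 64.5, 17.9 and 48.1 CPM in transgenic untreated fish, against 7.57, 7.61, 15.3, 8.61 and 4.47 CPM in wild-type untreated fish. The groups did not overlap, with a log2 fold change of 2.18 ± 0.38 (adjusted p = 0.0118), and the same gene had 1153 to 2804 CPM in transgenic and 530 to 2454 CPM in wild-type trametinib fish. ENSORLG00000020247 had 1.00, 0.895, 2.42, 0.366 and 0.656 CPM in transgenic fish, against 0.128, 0.136, 0.104, 0.337 and 0.472 CPM in wild-type fish. These groups overlapped, and the log2 fold change was 2.15 ± 0.56 (adjusted p = 0.0400). Its call was lost when any of 7 single fish was left out. Of the 2 lower members, ENSORLG00000019573 had 2.97, 3.88, 5.07, 2.70 and 3.10 CPM in transgenic fish, against 6.21, 13.8, 6.01, 7.05 and 6.46 CPM in wild-type untreated fish (log2 fold change -1.18 ± 0.26, adjusted p = 0.0215). ENSORLG00000005030 had 77.9, 78.7, 103, 87.5 and 102 CPM in transgenic fish, against 249, 170.0, 206, 150.0 and 93.1 CPM in wild-type fish (-0.96 ± 0.21, adjusted p = 0.0230). The first pair of groups was apart and the second overlapped in wild-type fish 72. The count of 16 calls dropped to 8 without transgenic fish 74 and to 9 without wild-type fish 68, 69 or 71. It dropped to 2 when 1 fit held all 10 groups. The shares of all genes called in these settings are not given here, so nothing is read about the members from these drops.

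In saline, where both genotypes had been in the dish, 1 member was higher and 1 lower in transgenic fish, where 0.112% and 0.166% of all genes tested were (0.278% in either direction). ENSORLG00000018261 had 0.659, 1.13, 5.92, 151 and 3.26 CPM in transgenic saline fish, against 0.0681 to 0.390 CPM in wild-type saline fish (log2 fold change 7.22 ± 1.41, adjusted p = 0.0219). Every transgenic fish was higher, and leaving out fish 17 gave 3.65 with the call lost (adjusted p = 0.092). Leaving out every low-factor library also gave 3.65, and the call held (adjusted p = 0.0107). ENSORLG00000020069 had 8.87 to 14.2 CPM in transgenic saline fish, against 27.0 to 330 CPM in wild-type saline fish (-4.19 ± 0.92, adjusted p = 0.0482). These groups did not overlap. The call was lost when any of 16 single fish was left out and held without the libraries of low TMM factor (-4.22, adjusted p = 0.025), a setting in which 10 members and 11.4% of all genes were called. In untreated fish the same gene was higher in transgenic fish, with a log2 fold change of 0.62 ± 0.16 (adjusted p = 0.0417), so its order between the genotypes was opposite in saline and untreated fish. The difference between these differences was not tested.

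The 4 members that did not pass a filter were ENSORLG00000020709 and ENSORLG00000020251 in every tested comparison, and ENSORLG00000013381 and ENSORLG00000004104 in that of untreated fish. The first 2 are low in most fish without trametinib, and no statement on change outside trametinib is made for them. For the other 2 this holds only for the comparison of untreated fish, as the remaining comparisons tested them. ENSORLG00000013381 is among the members called higher in saline than untreated fish in both genotypes. In the deposited counts, 14 members occupy 7 pairs of adjacent rows. Whether such neighbours overlap or are near copies that share reads is not known from the sources used here, and members of such pairs may not be independent measurements.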

How the data were processed

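Per the submitters' processing notes, reads were aligned with TopHat2 (listed as 2.2.4) and counted with featureCounts. No source used here gives the genome build, annotation, strand setting or handling of multiply mapped reads. The authors deposited unnormalized counts of reads for 20459 genes in 60 columns, each matched to a fish by its title. From these, CPM and log2 CPM (TMM factors over all 60 libraries, prior count 2) were computed with edgeR 4.0.16 in R 4.3.3. The members and gene lists were chosen with earlier results of these data known. None of the 21 lists of genes and markers could be applied, as no identifier matched a symbol. Tests were edgeR quasi-likelihood fits (filterByExpr, TMM, robust) on 25 saline and cisplatin, 20 saline and untreated, and 10 untreated fish, called at an adjusted p under 0.05 over all genes, and a further fit of trametinib and DMSO fish served as description. Genes were named by rule, at most 2 per direction: highest score, abundance, limit of membership, largest and smallest spread, largest difference between genotypes and largest called change. Single fish of the named members and of the member means were screened with Dixon's test. DESeq2 1.42.0, limma-voom 3.58.1, other scalings, filters and sample sets, and leaving out each fish were alternatives. The edgeR fits used for tests, with the first comparison of each, and the selection rule were tried on simulated counts. The alternatives were not. Intervals on read ratios are exact binomial and cover counting error only.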

Additional observations from a re-analysis of the deposited data

Results flagged for a closer look

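In 97 groups of values, 5 single fish stood far from the other fish of their group on the log2 scale, and chance alone flags about 1 group in 20. ENSORLG00000003566 was low in transgenic trametinib fish 63, at 6.24 CPM beside 85.1 to 414 CPM in the other 9, and that library also had a TMM factor of 0.7745. ENSORLG00000020709 was high in transgenic DMSO fish 56, at 4.43 CPM beside at most 0.0818 CPM, and this fish had the highest value outside trametinib for 10 members, or for 21 with library totals in place of TMM. ENSORLG00000018261 was high in transgenic DMSO fish 57, at 153 CPM beside 0.805 to 3.65 CPM. ENSORLG00000002657 was found in transgenic saline fish 17 alone of its group, at 0.112 CPM, which is 1 read. ENSORLG00000019573 was high in wild-type untreated fish 69, at 13.8 CPM beside 6.01 to 7.05 CPM. No member had all fish moving in opposite directions in the genotypes, with cisplatin against saline or with saline against untreated.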

How the results depend on the processing

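Of the 100 members, 77 to 98 stayed among the first 100 genes under 9 other forms of the rule and 88 to 97 when a single fish was left out. ENSORLG00000018261 changed sign, to -0.36 with group means and -2.04 with edgeR fold changes as the score. Counts of called members moved more. For cisplatin in transgenic fish (4 called), DESeq2 gave 7, the fit without low-factor libraries 9, the compared groups alone 2 and leaving out single fish 2 to 10, the last without cisplatin fish 21. For cisplatin in wild-type fish (3), these gave 10, 15, 17 and 2 to 4. For the difference of the cisplatin responses (0), DESeq2 gave 1, the fit without low-factor libraries 6, and single fish 0. For genotype in saline (2), DESeq2 gave 6, limma-voom 0, DESeq2 size factors 1, a filter of 1 CPM in 5 fish 1, the fit without low-factor libraries 10, the compared groups alone 0, a single fit of all groups 11 and single fish 0 to 11. For saline against untreated, the transgenic count (49) was 21 with the compared groups alone and 37 to 52 without single fish. The wild-type count (32) was 50 without low-factor libraries, 52 with the compared groups alone, 21 in a single fit and 22 to 50 without single fish, the last without transgenic saline fish 17. Members higher in both genotypes numbered 8 to 13 without single fish, and those lower in both (14) 11 to 22, with 22 without low-factor libraries and 9 in a single fit. For genotype in untreated fish (16), DESeq2 gave 26, a single fit 2 and single fish 8 to 17. The share of all genes called moved too. Without low-factor libraries it was 1.63% for cisplatin in transgenic and 12.1% in wild-type fish, against 0.337% and 0.0749% with them. It was 10.3% for the difference of the cisplatin responses and 11.4% for genotype in saline. For saline against untreated it was 37.5% in transgenic and 37.2% in wild-type fish. Shares for the other alternatives are not given here, so nothing is read about the members from those counts. The cause of the changes in the counts was not tested. The counts of members called higher and lower in both genotypes, and the alternatives for counts against untreated fish and DMSO, were added after seeing the data. Those alternatives gave 85 to 88 members with a trametinib median above untreated in both genotypes (85). They gave 79 to 83 with the trametinib median highest of the 5 treatments (80), and 28 to 41 without overlap between trametinib and DMSO fish (31). The untreated fit holds no library of low factor, so that alternative gave no value there. No paired analysis was possible because no fish number occurs in more than 1 group.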
